A study of Mus musculus with 4 samples.

Results

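miR-9 and miR-124 are microRNAs (miRNAs, small RNAs that guide repression of matching mRNAs) of progenitors and neurons, and their mature arms were followed here in the embryonic mouse retina. The members are the rows named for the mature arms of both, mmu-miR-9-5p, mmu-miR-9-3p, mmu-miR-124-5p and mmu-miR-124-3p (the prefix, for mouse, is left out below). They are 4 of the 1326 miRNAs listed, and all 4 were among the 584 miRNAs that reached 10 counts in 2 or more libraries and so entered the tests. Small RNA of 18 to 30 nt was sequenced from whole retina at E18.5, late in gestation, in 2 libraries of Ptf1a+/- embryos and 2 of Ptf1a-/- embryos. Ptf1a encodes a transcription factor with which retinal progenitors form amacrine and horizontal cells, so the controls carried 1 disrupted copy as well. The labels give no further allele, strain or treatment, and name no animal for any library. p-values therefore measure only how these particular libraries vary, and that variation could be technical. The series asks how miRNAs bear on the generation of amacrine cells.

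A miRNA precursor is a hairpin from whose 2 sides a 5p and a 3p arm can be cut. Bases 2 to 8 of an arm, the seed, do most of the pairing with targets. miR-9 is made in neural progenitors and young neurons. Its known targets include Hes1, a repressor of neuronal differentiation, and Nr2e1, a nuclear receptor of neural stem cells. With let-7 and miR-125 it moves retinal progenitors from early to late fates. miR-124 is the classic neuronal miRNA: it accumulates when cells leave the cycle and represses non-neuronal transcripts such as Ptbp1, a splicing regulator.

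The most frequent sequence of each arm was the same in all 4 libraries, as it was for 408 of the 584 tested miRNAs. These sequences are shown because the arms differ in seed, and because 1 of the miR-9 arms departs from the reference. The RefSeq entries used here held neither miR-124 arm, so those arms were not compared with RefSeq. They are given as deposited, in DNA letters, 5′ to 3′, with the seed in capitals.
miR-9-5p: tCTTTGGTtatctagctgtatga
miR-9-3p: tAAAGCTAgataaccgaaagta
miR-124-5p: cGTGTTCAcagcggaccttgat
miR-124-3p: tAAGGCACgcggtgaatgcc
No seed was shared between members. Among all other listed miRNAs only miR-9b-3p shared one, that of miR-9-3p. Its most frequent sequence had that seed in 3 libraries, with 3, 4 and 4.5 counts in Ptf1a+/- replicates 1 and 2 and Ptf1a-/- replicate 1. In Ptf1a-/- replicate 2, with 2.5 counts, it had the seed TACAGCT. GC content was 34.8% in miR-9-5p and 31.8% in miR-9-3p, against 54.5% in miR-124-5p and 60.0% in miR-124-3p.

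The common form of miR-9-3p was shifted. RefSeq (GRCm38.p6) gives both miR-9 arms, and the deposited miR-9-5p equals its RefSeq entry, again with the seed in capitals.
RefSeq miR-9-5p: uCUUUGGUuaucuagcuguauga
RefSeq miR-9-3p: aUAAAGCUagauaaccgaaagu
The deposited miR-9-3p starts 1 base later and ends 1 base later, so it carries the seed AAAGCTA in place of the reference UAAAGCU. The added 3′ base is present at that place in all 3 precursors. Among the 100 most abundant miRNAs the most frequent sequence started at the reference base in all 4 libraries for 95. It started later for 4 (miR-9-3p, miR-101b-3p, miR-140-3p and miR-361-3p) and earlier for miR-101a-3p. Among all tested miRNAs with a sequence in every library, 33 of 581 (5.68%) started later in all 4 libraries. The table holds no counts per variant, so the share of miR-9-3p reads with this start is unknown. The shift was present in both genotypes.

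miR-9 has 3 precursors, printed from RefSeq with the reference arms in capitals to show that reads of either arm cannot be assigned to one of them.
Mir9-1: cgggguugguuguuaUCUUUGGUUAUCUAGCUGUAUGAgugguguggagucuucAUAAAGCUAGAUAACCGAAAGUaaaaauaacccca
Mir9-2: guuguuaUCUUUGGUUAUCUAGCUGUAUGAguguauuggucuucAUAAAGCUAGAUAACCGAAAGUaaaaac
Mir9-3: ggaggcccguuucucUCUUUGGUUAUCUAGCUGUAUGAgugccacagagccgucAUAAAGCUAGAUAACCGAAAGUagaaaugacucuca
Mir9-1 lies at chr3:88215598-88215686, plus strand, intronic in the lincRNA gene Gm3764, with the miRNA gene Gm25641 on the other strand. Mir9-2 lies at chr13:83738814-83738885, plus strand, within an exon of at least 1 transcript of the lincRNA gene C130071C03Rik. Mir9-3 lies at chr7:79505264-79505353, plus strand, intronic in the lincRNA gene Mir9-3hg. Genes and exons are those of GENCODE M21 on the same build. Both arms are letter for letter the same in the 3 precursors, which differ in the loop and the flanks. Each level of miR-9 below is thus a sum over 3 genes.

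The libraries held 3647145 to 4385834 listed counts each. The Ptf1a+/- libraries lay close together (edgeR's coefficient of biological variation 1.39%) and the Ptf1a-/- libraries did not (22.6%). The Ptf1a+/- pair still differed by more than sampling noise gives (a chi-square of 1.85 per degree of freedom), and both were kept as replicates. Ptf1a-/- replicate 2 stood apart: its scaling factor by the trimmed mean of M-values (TMM, which sets the libraries so that most miRNAs do not differ) was 0.829, against 1.06 to 1.07 in the others. The library total behind the authors' CPM exceeded the listed counts by 27.9% of that total in this library and by 16.3 to 22.7% in the others. The members are therefore given on both scales and without this library.

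miR-9-5p was the most abundant miRNA of the retina in every library. It took 20.5% of listed counts in Ptf1a+/- replicate 1 (95% exact binomial interval 20.51 to 20.59%), 20.8% in replicate 2 (20.72 to 20.80%), 23.1% in Ptf1a-/- replicate 1 (23.10 to 23.19%) and 23.6% in replicate 2 (23.57 to 23.65%). These intervals cover counting error only. On the TMM scale its level was 193585 and 193725 CPM in Ptf1a+/- and 218605 and 284808 CPM in Ptf1a-/- replicates 1 and 2. Each Ptf1a-/- library exceeded each control, and replicate 2 was the highest by a wide margin. In the authors' CPM the same libraries stood at 170456, 173776, 178976 and 170315, and the genotypes overlapped. The next most abundant miRNA was miR-26a-5p in 3 libraries and miR-182-5p in Ptf1a-/- replicate 2. miR-9-5p exceeded it 1.62-, 1.64-, 1.93- and 1.97-fold in the libraries in that order.

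miR-9-3p, whose known targets include the REST corepressor Rcor1, was a well expressed miRNA in its own right. Its TMM-scaled level was 4715 and 4561 CPM in Ptf1a+/- and 5321 and 4442 CPM in Ptf1a-/- replicates 1 and 2. The Ptf1a-/- libraries held both the highest and the lowest value, so the genotypes overlapped. By the authors' CPM it stood at 4151, 4092, 4357 and 2656. It ranked 31st by mean level over the 584 miRNAs, and its range overlapped those of its neighbours in that order, miR-541-5p and miR-191-5p.

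miR-124-3p, the arm that carries the neuronal activity of this miRNA, was present at a fraction of a percent of the counts. Its counts were 3951 and 4859 in Ptf1a+/- and 3950 and 2704 in Ptf1a-/-, or 0.108, 0.111, 0.108 and 0.0690% of listed counts. Its TMM-scaled level was 1021 and 1034 CPM in Ptf1a+/- and 1020 and 833 CPM in Ptf1a-/- replicates 1 and 2. Ptf1a-/- replicate 1 was level with the controls, just below both, and replicate 2 alone was low. By the authors' CPM the values were 898.6, 927.3, 834.8 and 497.9. It ranked 80th by mean level, with a range that overlapped those of miR-192-5p and miR-135a-5p on either side.

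miR-124-5p, the less abundant arm, had 1176 and 1413 counts in Ptf1a+/- and 1253 and 1374 in Ptf1a-/-. Its TMM-scaled level was 303.8 and 300.6 CPM in Ptf1a+/- and 323 and 423 CPM in Ptf1a-/- replicates 1 and 2. As for miR-9-5p, both Ptf1a-/- libraries lay above both controls and replicate 2 was the highest. By the authors' CPM the order was the reverse, at 267.5, 269.7, 264.8 and 253.0. It ranked 125th by mean level, and its range overlapped those of miR-495-3p and miR-204-3p. The order of the 4 members, miR-9-5p, miR-9-3p, miR-124-3p and miR-124-5p, was the same in every library, with no overlap between them. Adapter ligation favours some ends over others, so levels of different arms are less comparable than levels of 1 arm between libraries.

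**Figure D1:**
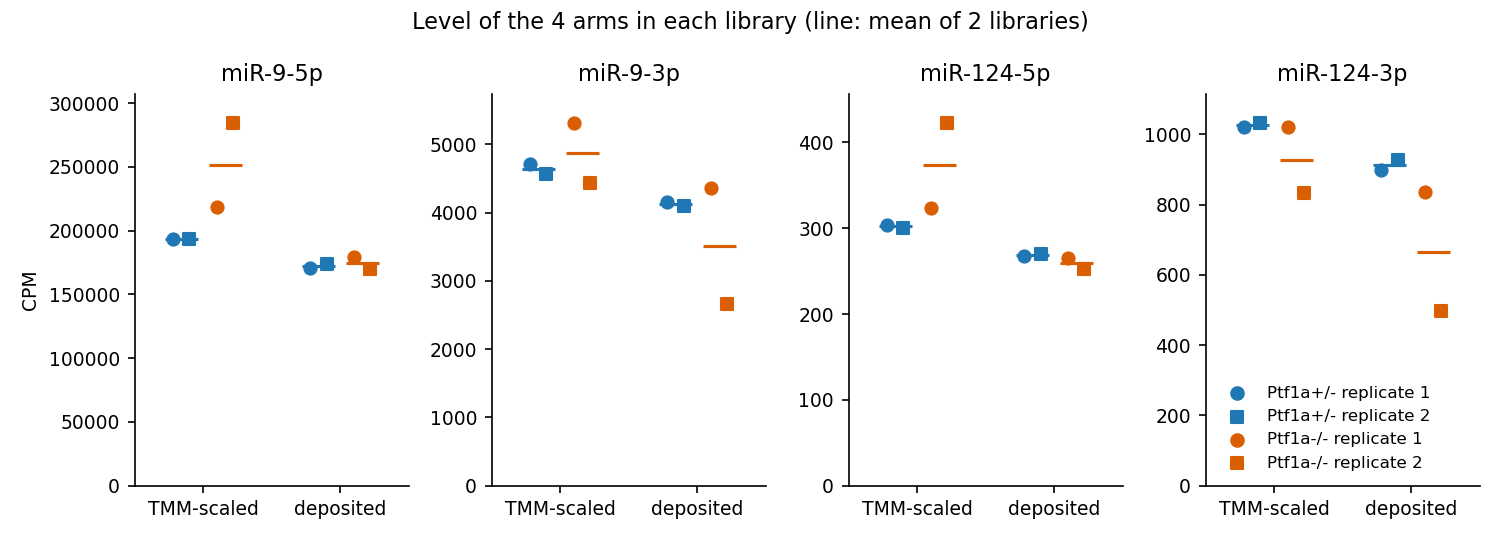
Level of each arm in CPM (vertical axis, from 0) in the 4 libraries, TMM-scaled on the left of each panel and as deposited on the right; colours are genotypes, circles are replicate 1, squares replicate 2 and lines the mean of 2 libraries. TMM-scaled miR-9-5p and miR-124-5p are highest in Ptf1a-/- replicate 2 (284808 and 423 CPM), where miR-9-3p and miR-124-3p are lowest (4442 and 833 CPM).

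The first comparison asked whether these arms differ in retinas without functional Ptf1a. None of the 4 passed the test, against 9.76% of the 584 miRNAs in either direction, 6.16% higher and 3.6% lower (edgeR quasi-likelihood test, Benjamini-Hochberg adjusted p under 0.05), and none had an unadjusted p under 0.05, against 25.3%. No member passed with DESeq2 either, where miR-9-5p had an unadjusted p of 0.0375 (adjusted p = 0.223), or with limma on the authors' CPM. The Ptf1a-/- values were both above the 2 controls for 2 of 4 members (26.7% of all tested miRNAs) and both below them for 1 of 4 (31.5%). In whole retina, fewer cells of a type and less RNA per cell cannot be told apart.

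miR-9-5p stood at 193655 ± 99.1 CPM in Ptf1a+/- and 251707 ± 46813 CPM in Ptf1a-/- (mean ± SD, n = 2 each, as below), a log2 fold change of 0.38 ± 0.20 (SE, edgeR adjusted p = 0.300). The 95% interval of the fold ran from 0.932 to 1.81. miR-124-5p stood at 302 ± 2.24 and 373 ± 70.5 CPM, a log2 fold change of 0.30 ± 0.15 (edgeR adjusted p = 0.288), with a fold interval of 0.951 to 1.60. The spread between the Ptf1a-/- libraries was in both cases close to the size of the difference between genotypes.

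miR-9-3p stood at 4638 ± 109 and 4881 ± 622 CPM, a log2 fold change of 0.07 ± 0.13 (edgeR adjusted p = 0.781), with a fold interval of 0.843 to 1.31. miR-124-3p stood at 1027 ± 9.29 and 926 ± 132 CPM, a log2 fold change of -0.15 ± 0.13 (edgeR adjusted p = 0.530), with a fold interval of 0.722 to 1.13. The intervals leave room for changes of either sign in every member. Of the 584 miRNAs, 232 had a larger change in size than miR-9-5p and 491 a larger one than miR-9-3p.

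**Figure D2:**
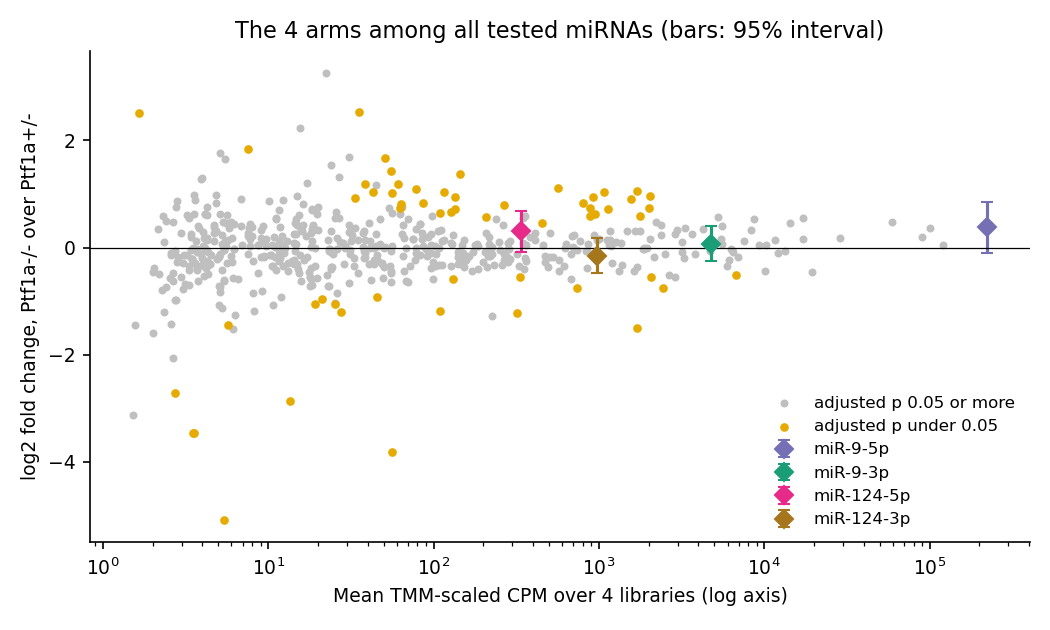
Log2 fold change of Ptf1a-/- over Ptf1a+/- (vertical axis) against the mean TMM-scaled CPM (horizontal log axis) for the 584 tested miRNAs; diamonds are the 4 arms with their 95% interval. All 4 intervals include 0, and miR-9-5p is the point farthest to the right.

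The sign of 2 members depended on the scale. With library size as the only scaling, which moved the median of all miRNAs to -0.18, miR-9-3p stood at a log2 fold change of -0.0868. On the authors' CPM, where that median was -0.33, miR-9-3p stood at -0.28, miR-124-5p at -0.0532, miR-124-3p at -0.50 and miR-9-5p at 0.02 (log2 of CPM + 1). These scales differ by a factor per library, which moves every miRNA nearly alike. A member's place relative to the median of all miRNAs was therefore almost fixed in advance and adds no support. miR-9-5p lay 0.38 above that median with TMM, 0.36 with library size and 0.35 on the authors' CPM. miR-124-3p lay 0.15, 0.13 and 0.17 below it. Without Ptf1a-/- replicate 2 the log2 fold changes were 0.19 for miR-9-5p, 0.22 for miR-9-3p, 0.12 for miR-124-5p and 0.00835 for miR-124-3p, and the first 3 passed (edgeR adjusted p of 1.73e-14, 3.16e-20 and 0.0461). Without Ptf1a-/- replicate 1 they were 0.56, -0.0618, 0.49 and -0.30, and all 4 passed (edgeR adjusted p from 1.28e-85 to 0.0181). In both of these fits the spread comes from the Ptf1a+/- pair alone and the lone Ptf1a-/- library is assumed to vary as little. They then called 274 and 262 of the 584 miRNAs, against 57 with all libraries.

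**Figure D3:**
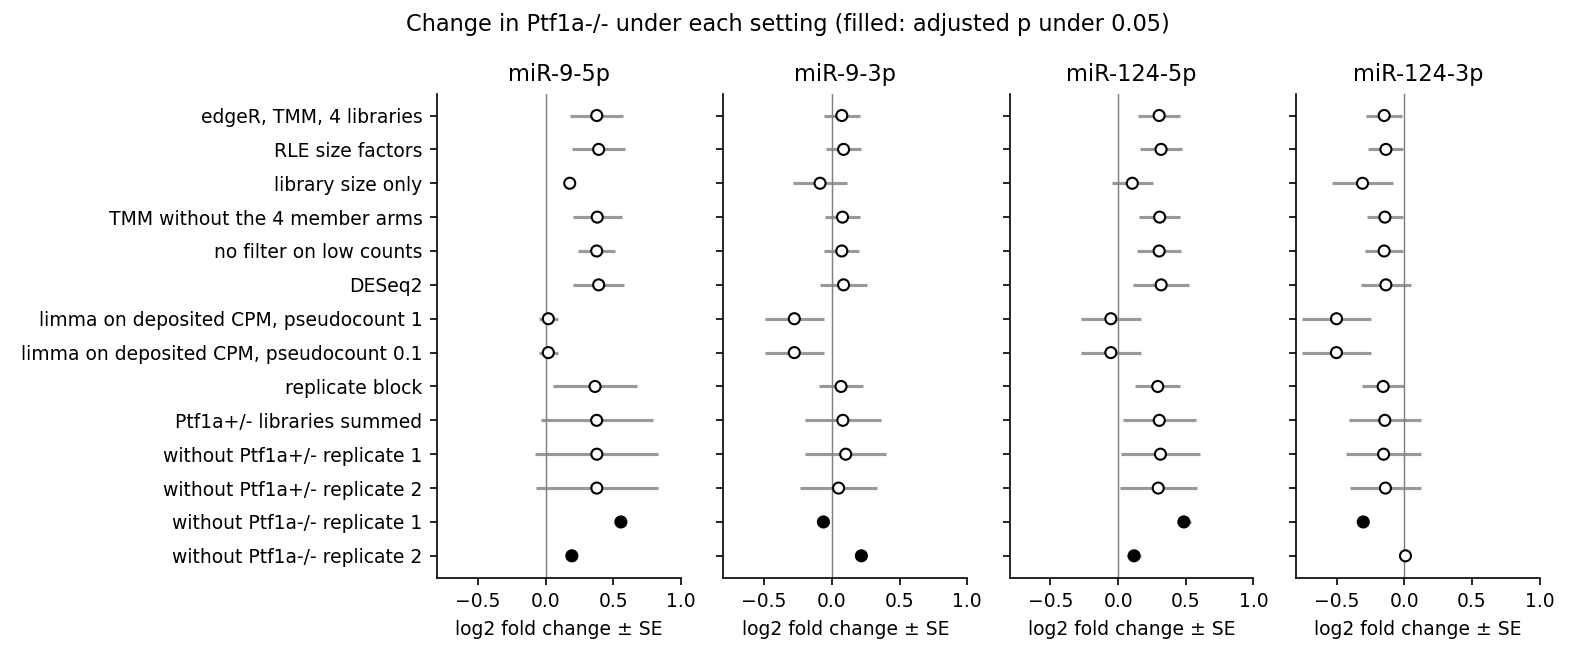
Log2 fold change ± SE of each arm in Ptf1a-/- (horizontal axis) under each way of scaling, testing or leaving out a library (rows); filled points have an adjusted p under 0.05. Points are filled only where a Ptf1a-/- library was left out.

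The second comparison asked whether the balance of the 2 arms changed. miR-9 favoured its 5p arm and miR-124 its 3p arm in every library. Per count of miR-9-3p, miR-9-5p had 41.1 and 42.5 counts in Ptf1a+/-, and 41.1 and 64.1 in Ptf1a-/- replicates 1 and 2. Ptf1a-/- replicate 1 was level with the controls, and replicate 2 was higher. For miR-124 there were 3.36 and 3.44 counts of the 3p arm per count of the 5p arm in Ptf1a+/-, and 3.15 and 1.97 in Ptf1a-/-. Both Ptf1a-/- libraries were lower, replicate 1 by little. The 5p arm thus made up 22.9, 22.5, 24.1 and 33.7% of miR-124 counts.

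Such a ratio does not depend on how libraries are scaled. Over all 152 miRNA names with both arms tested, the median size of the log2 ratio of arms was 2.90. The log2 ratio of 5p to 3p was more lopsided than that of miR-9 in 40 pairs and than that of miR-124 in 106. The log2 ratio of miR-9 changed by 0.30 ± 0.30 (SE, limma, adjusted p = 0.652) and that of miR-124 by 0.45 ± 0.30 (limma, adjusted p = 0.517). Neither passed, against 0.658% of pairs, which is the single pair miR-673, named after its value was seen. Their unadjusted limma p-values were 0.343 and 0.173, and 11.2% of pairs had one under 0.05. Both Ptf1a-/- libraries lay above both controls for miR-124, as for 27.6% of pairs, and not for miR-9. Without Ptf1a-/- replicate 2 the change was -0.0237 for miR-9 and 0.11 for miR-124. Without replicate 1 it was 0.62 and 0.79. These fits leave a lone Ptf1a-/- library and take the spread from the Ptf1a+/- pair, so only the size of the change is given.

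The Ptf1a-/- libraries differed from each other in the same sense for both miRNAs. From replicate 1 to replicate 2 the log2 ratio of 5p to 3p differed by 0.64 for miR-9 and 0.68 for miR-124, and between the Ptf1a+/- libraries by 0.05 and -0.03. A larger difference in size between the Ptf1a-/- libraries was found in 43 and 40 of the 152 pairs. The median of this difference over all 152 pairs was 0.0897.

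**Figure D4:**
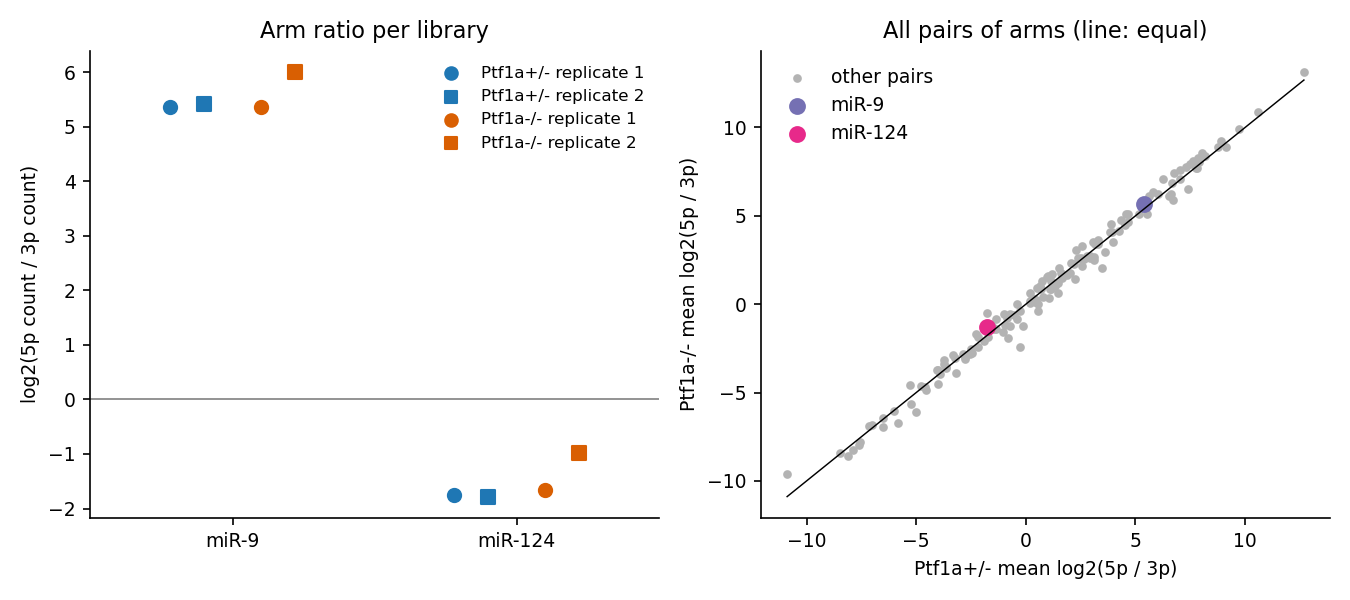
Left, log2 of 5p over 3p counts (vertical axis) of miR-9 and miR-124 in each library, colours and symbols by genotype and replicate. Right, the mean of this log2 ratio in Ptf1a-/- against Ptf1a+/- for the 152 pairs, with a line of equality; both members lie close to it, at changes of 0.30 and 0.45.

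The third comparison set miR-124-3p against miR-9-5p, an arm of both progenitors and young neurons. Per count of miR-124-3p, miR-9-5p had 189.7 and 187 counts in Ptf1a+/-, and 214 and 342 in Ptf1a-/- replicates 1 and 2. Both Ptf1a-/- libraries thus held less miR-124-3p per miR-9-5p than either control, replicate 1 by a small margin. This order was given by the TMM-scaled levels above, so the ratio adds no separate support. There miR-9-5p lay above both controls, as did 26.7% of tested miRNAs, and miR-124-3p below both, as did 31.5%. The log2 ratio of miR-124-3p to miR-9-5p differed by -0.52 (two-sided exact permutation test, p = 0.33, the smallest that 2 libraries against 2 can give). It differed by -0.19 without Ptf1a-/- replicate 2 and by -0.86 without replicate 1. With the arms of each miRNA summed it was -0.39.

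Entries with names close to the members were examined because reads may be divided between them. miR-9b is annotated by RefSeq on the strand opposite the Mir9 precursors. The most frequent sequence counted as miR-9b-5p was close to both miR-9-5p and RefSeq miR-9b-5p. It is shown with the bases that differ from miR-9-5p in capitals.
miR-9b-5p, both Ptf1a+/- libraries: CcttCggttatctagctgtatga
miR-9b-5p, Ptf1a-/- replicate 1: ActtCggttatctagctgtatga
RefSeq miR-9b-5p: uucgguuaucuagcuuuauga
Counted from the 5′ end of miR-9-5p the differences were T1C and T5C in the Ptf1a+/- libraries and T1A and T5C in both Ptf1a-/- libraries. RefSeq miR-9b-5p also has a C at the place of T5C. It has a U where the counted sequence and miR-9-5p have a G. Which of them gave these reads was not tested. The entry held 10, 7, 12.5 and 8 counts, against more than 67747 times as many of miR-9-5p in each library. The sequence counted as miR-9b-3p differed from the shifted miR-9-3p by G16A in 3 libraries, and RefSeq miR-9b-3p has that A as well. At an earlier base RefSeq miR-9b-3p has a C, where the sequence in those libraries had the A of miR-9-3p. In Ptf1a-/- replicate 2 it had that C, and the G of miR-9-3p at the place of G16A. The origin of these reads was not tested either. Counts that are not whole appear in miR-9-3p and miR-9b-3p in the same Ptf1a-/- libraries (20614.5 and 14423.5, and 4.5 and 2.5). The 5p entries did not match in this way: in Ptf1a-/- replicate 1 miR-9b-5p held 12.5 counts and miR-9-5p a whole count, 846843. The sources used here do not give how reads were divided. miR-9b-5p did not pass (log2 fold change 0.49 ± 0.41, edgeR adjusted p = 0.516).

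miR-124b-3p was the reverse complement of miR-124-5p over 21 bases in all 4 libraries, and is shown with those bases in capitals.
reverse complement of miR-124-5p: aTCAAGGTCCGCTGTGAACACG
miR-124b-3p: TCAAGGTCCGCTGTGAACACGc
It had 49 and 45 counts in Ptf1a+/- and 38 and 53 in Ptf1a-/-, which is 4.17, 3.18, 3.03 and 3.86% of the counts of miR-124-5p. The log2 fold change was 0.22 ± 0.34 (edgeR adjusted p = 0.751), and -0.14 without Ptf1a-/- replicate 2.

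The miRNAs closest in pattern were taken by the distance between TMM-scaled log2(CPM + 1) profiles over the 4 libraries, each centred on its own mean, among 199 others with a mean of 100 CPM or more. This describes 4 points per miRNA and carries no test. The closest to miR-9-5p was miR-124-5p (distance 0.0756, against a median of 0.537), followed by let-7g-5p (0.111) and miR-434-5p (0.112). The closest to miR-124-5p were miR-381-3p (0.0687), miR-9-5p and miR-434-5p (0.0979). miR-9-3p lay closest to miR-16-5p (0.0273), miR-708-5p (0.0433) and miR-221-3p (0.0447), and miR-124-3p to miR-125b-5p (0.0330), miR-503-5p (0.0700) and miR-181c-5p (0.0722). The partner arms were not among the closest: miR-9-3p was 102nd of 199 for miR-9-5p, at about the median distance (0.544), and miR-124-5p was 150th for miR-124-3p (0.656, against a median of 0.457). In profile over these libraries each 5p arm thus lay closer to the other 5p arm than to its own partner.

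**Figure D5:**
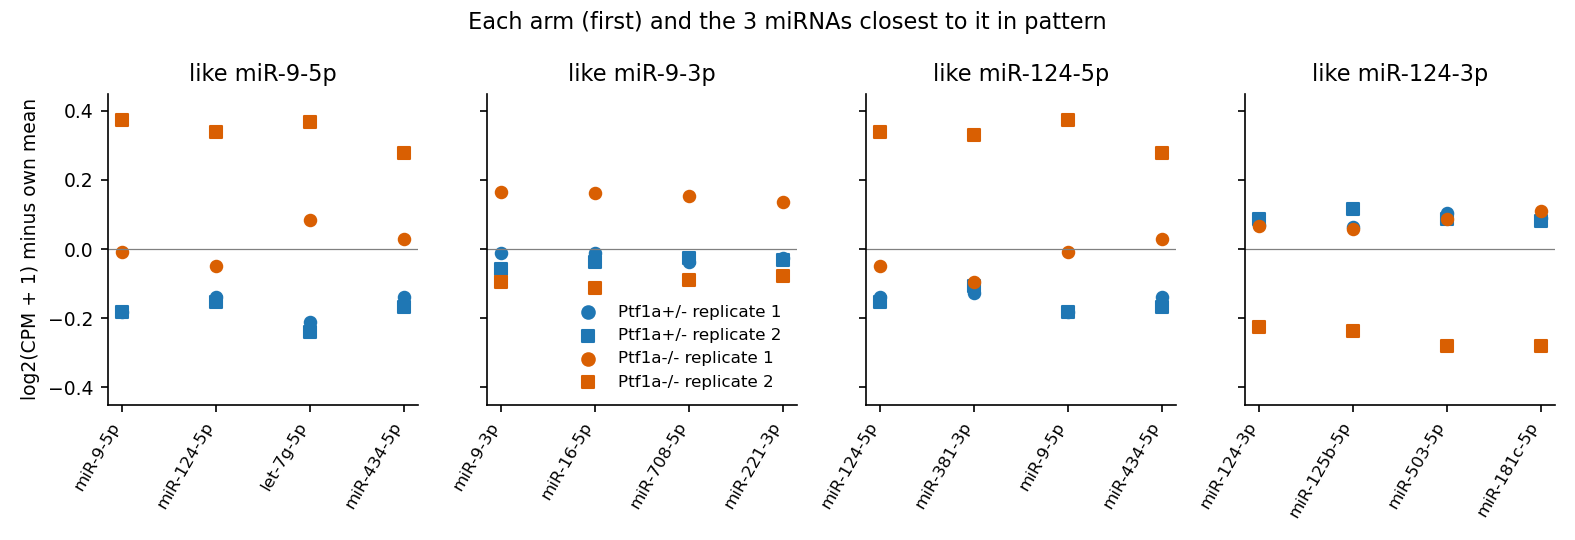
Log2(CPM + 1) minus the miRNA's own mean (vertical axis) in the 4 libraries, for each arm (first in its panel) and the 3 miRNAs closest to it. miR-9-5p and miR-124-5p share a high Ptf1a-/- replicate 2, and miR-124-3p and its neighbours a low one.

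Other miRNAs of the same processes were read in the same fit. Of 11 let-7 and miR-125 guide arms tied to progenitor timing, 1 was lower and none higher, with a median log2 fold change of 0.19 against 0.00 for all 584 miRNAs. That median rested on Ptf1a-/- replicate 2: it was -0.013 without that library and 0.24 without replicate 1, and -0.17 on the authors' CPM. The lower one was miR-125a-5p (-0.52, edgeR adjusted p = 0.0430). The most abundant, let-7i-5p, stood at 0.19, at -0.0756 without Ptf1a-/- replicate 2 and at -0.17 on the authors' CPM. Of 11 tested neuron-enriched miRNAs other than miR-124, 1 was higher and 1 lower, with a median of -0.26. This median was -0.041 without Ptf1a-/- replicate 2, -0.14 without replicate 1 and -0.64 on the authors' CPM. miR-7b-5p, of a family found in neurons, stood at 859 ± 34.7 CPM in Ptf1a+/- and 1408 ± 197 CPM in Ptf1a-/- (log2 fold change 0.71 ± 0.13, edgeR adjusted p = 0.0293). miR-132-3p, a miRNA induced by neuronal activity, was lower (log2 fold change -0.96 ± 0.22, edgeR adjusted p = 0.0472). These 3 calls kept their direction, also on the authors' CPM and without Ptf1a-/- replicate 2, but they depended on the settings. With library size as the only scaling all 3 were lost. The edgeR adjusted p was then 0.0591 for miR-125a-5p, 0.081 for miR-7b-5p and 0.0845 for miR-132-3p. All 3 were lost as well without a filter on low counts (edgeR adjusted p = 0.0714 for each) and with a replicate block. The same held without either Ptf1a+/- library, where a lone control is left. With DESeq2 miR-132-3p did not pass (adjusted p = 0.106). On the authors' CPM (log2 of CPM + 1) miR-7b-5p stood at 0.36 (limma adjusted p = 0.256) and miR-132-3p at an adjusted p of 0.0581, and miR-125a-5p passed at -0.86 (limma adjusted p = 0.0257). The most abundant of this list, miR-7a-5p, stood at 0.53 ± 0.14 (edgeR adjusted p = 0.0781). None of 9 miRNAs of the miR-17/92 and miR-106b clusters, known from dividing cells, passed. Their median was 0.042. It was 0.23 without Ptf1a-/- replicate 2, -0.051 without replicate 1 and -0.31 on the authors' CPM. In the fit with all libraries miR-20a-5p stood at 0.42 (edgeR adjusted p = 0.183) and miR-92a-3p at -0.10. Called members thus made up 3 of 31 in these lists, near the 9.76% of all miRNAs.

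Markers of retinal and neighbouring cells were summed on the TMM scale. The 3 photoreceptor and sensory guide arms miR-183-5p, miR-96-5p and miR-182-5p summed to 145729 and 142342 CPM in Ptf1a+/- and to 143910 and 232319 CPM in Ptf1a-/-. This sum was high in the same library as miR-9-5p and miR-124-5p, through miR-182-5p (144463 CPM) and miR-183-5p (82022 CPM), and its part in those values was not tested. miR-96-5p was below both controls in both Ptf1a-/- libraries, at 6689 and 6547 CPM in Ptf1a+/- and 4616 and 5833 CPM in Ptf1a-/-. None of the 3 passed. Vessel and mural markers, 2 tested of 3, summed to 579.9 and 598 CPM in Ptf1a+/- and to 337 and 566 CPM in Ptf1a-/-, with miR-145a-5p at 0 in 3 libraries. Pigment epithelium markers, 2 of 2, summed to 3293 and 3338 CPM in Ptf1a+/- and to 2952 and 3277 CPM in Ptf1a-/-. The 3 striated muscle markers summed to 48.6 and 51.3 CPM in Ptf1a+/- and to 65.1 and 70.2 CPM in Ptf1a-/-. No marker of these 2 lists passed. Over the 4 libraries lens and surface epithelium markers summed to 227 to 305 CPM and the single tested blood marker to 63.5 to 95.8 CPM (the erythroid miR-451a had 0, 1, 1 and 1 counts). In the epithelial list miR-200b-3p had 6.46 and 6.60 CPM in Ptf1a+/- and 0.258 and 0.924 CPM in Ptf1a-/-, the latter at or under the floor of 3 counts. It met the filter through the Ptf1a+/- libraries alone, so its call (edgeR adjusted p = 0.0124) is read as no result.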

How the data were processed

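Per the labels' protocols, RNA of 18 to 30 nt was gel-purified from 1 µg of total RNA and made into libraries with a New England Biolabs kit. The submitters' processing notes name bcl2fastq, version 2.20.0.422. An aligner, a counter or a build is not given in the sources used. The authors' table of raw values holds estimated counts, of which 5.73 to 7.84% per library are not whole; they were rounded. The authors' CPM are the same counts scaled to a larger total than the listed one. The deposited most frequent sequences are marked against miRBase22, per the file headers. A count of 0 allows up to 0.684 to 0.823 CPM (3 counts).

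The main test was edgeR 4.0.16 (R 4.3.3; quasi-likelihood, legacy=FALSE, TMM, genotype only) over all 584 miRNAs that reached 10 counts in 2 libraries. Arm ratios (0.5 added to each count) were tested with limma 3.58.1 over all pairs. Tests were tried on simulated data with the same spread in both genotypes, so this trial did not cover the unequal spread of these libraries. DESeq2 1.42.0, other scalings, filters, a replicate term and left-out libraries were alternatives. Named miRNAs were the members, their paralog entries, neighbours in level, the 3 closest in pattern, and the smallest p and highest level of each list; miR-132-3p, miR-673 and miRNAs with a shifted 5′ end were named after their values were seen. Members and lists were chosen with earlier results of these data known.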

Additional observations from a re-analysis of the deposited data

How the results depend on the processing

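No member of the 4 passed with all libraries under any scaling, filter or tool tried. With library size as the only scaling calls were 4 up and 12 down (25% up, against 63.2% with TMM), and miR-9-3p had a log2 fold change of -0.0868; miR-9-5p came closest to the threshold there (0.18, edgeR adjusted p = 0.0664). Without a filter 12 were higher and 9 lower. On the authors' CPM 1 was higher and 27 lower with a pseudocount of 1 (3.57% of calls higher), and 1 and 22 with 0.1; miR-9-3p stood at -0.28 with either and miR-124-5p at -0.0532 and -0.0534. With the Ptf1a+/- libraries summed into 1, none was higher and 1 lower. Leaving out 1 library at a time gave 0 to 142 higher and 1 to 132 lower, log2 fold changes of 0.19 to 0.56 (miR-9-5p), -0.0618 to 0.22 (miR-9-3p), 0.12 to 0.49 (miR-124-5p) and -0.30 to 0.00835 (miR-124-3p), 0 to 24 called pairs of arms, arm ratio changes of -0.0237 to 0.62 (miR-9) and 0.11 to 0.79 (miR-124), and -0.86 to -0.19 for miR-124-3p against miR-9-5p. Where 1 library of a genotype is left, it is assumed to vary like the other group. With 100 or more counts required in every library, none of 60 pairs was called (11 at an unadjusted limma p under 0.05). Among other miRNAs named, let-7i-5p stood at -0.0135 with library size only and -0.174 on the authors' CPM with either pseudocount, and miR-124b-3p at -0.129 and -0.141 there. Leaving out libraries gave -0.0756 to 0.436 for let-7i-5p, -0.141 to 0.572 for miR-124b-3p and -0.209 to 0.0128 for miR-92a-3p.

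Replicate numbers are shared between genotypes, but nothing in the labels says that they pair the samples, and the differences between replicates correlated by only 0.05 over miRNAs. With a replicate block 5 miRNAs were higher and 7 lower, and 7 pairs of arms were called; the block changed no call of a member. The members had 1176 counts or more in every library. With 2 libraries a genotype, the spread between the Ptf1a-/- libraries sets the width of the intervals.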
